A study of Homo sapiens with 8 samples.

Results

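The data described here are the Flag-actin peaks of control HCT-116 cells that overlapped no peak of the matching IgG library, called IgG-free peaks below. They were chosen as the regions of the Flag-actin peak list on chromosomes 1 to 22 and X that shared no base with a region of the IgG peak list. Of 38778 Flag-actin peaks on these chromosomes 26159 were IgG-free, which is 67.5% (Wilson 95% interval 67.0 to 67.9%), and 12619 lay over an IgG peak. With the Flag-actin list cut to the length of the IgG list, by total signal, the IgG-free share was 44.3%. The IgG list held 20160 peaks on the same chromosomes, of which 7461 (37.0%, interval 36.3 to 37.7%) overlapped no Flag-actin peak. The intervals cover counting error within these libraries only, and neighbouring peaks are not independent.

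HCT-116 is a human colorectal carcinoma line. Both libraries carry the control genotype of a series on SETD3, the histidine methyltransferase of actin, and both were made by CUT&RUN from cells grown in the same medium. One library used Flag-tagged wild type actin as the target and the other used IgG, with 1 library a side, no repeat and so no test of any difference. The IgG library has the word Empty in its title. Whether its cells held the Flag-actin construct is not stated, nor is how that construct was introduced or how strongly it was expressed.

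Actin is best known as the filament of the cytoskeleton, but a pool of it enters the nucleus. There actin monomers, with actin-related proteins, are subunits of the SWI/SNF, INO80, SRCAP and TIP60 chromatin remodelling complexes, and actin has also been found with RNA polymerases and as a regulator of the SRF coactivators of the MRTF family. In CUT&RUN a nuclease tethered by an antibody cuts the chromatin around the bound protein and the DNA set free is sequenced, while IgG, which has no defined chromatin target, gives the regions that are released without one.

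The promoters that the strongest IgG-free promoter peaks touched are shown to give the sequence around peaks at annotated starts. Those touched by the strongest IgG promoter peaks are given beside them. Each is the RefSeq promoter of assembly GRCh38.p14, from 250 bases before to 50 bases after the annotated start, written 5′ to 3′ on the strand of the gene, with every CpG dinucleotide in capitals. IgG-free peaks covered 90 of the 300 bases at IQGAP1, all of them at RNF166 and OBP2B, 102 at RASGRF2 and 201 at ZNF717. SGTB and HYCC1 were touched by IgG peaks of 50 and 30 bp that also overlapped Flag-actin peaks. CpG number and GC content are those of the whole window.
IQGAP1: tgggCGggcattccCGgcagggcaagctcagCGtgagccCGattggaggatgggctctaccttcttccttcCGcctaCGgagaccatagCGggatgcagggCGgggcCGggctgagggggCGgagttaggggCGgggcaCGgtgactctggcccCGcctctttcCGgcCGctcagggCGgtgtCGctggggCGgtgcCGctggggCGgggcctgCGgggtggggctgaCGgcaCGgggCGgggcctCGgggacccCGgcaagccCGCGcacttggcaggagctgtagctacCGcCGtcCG
RNF166: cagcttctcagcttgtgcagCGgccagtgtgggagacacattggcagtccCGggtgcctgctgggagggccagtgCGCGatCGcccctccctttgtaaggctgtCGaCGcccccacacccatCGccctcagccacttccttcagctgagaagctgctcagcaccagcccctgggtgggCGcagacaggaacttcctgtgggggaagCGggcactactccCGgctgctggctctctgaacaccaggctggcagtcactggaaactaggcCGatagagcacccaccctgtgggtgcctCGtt
RASGRF2: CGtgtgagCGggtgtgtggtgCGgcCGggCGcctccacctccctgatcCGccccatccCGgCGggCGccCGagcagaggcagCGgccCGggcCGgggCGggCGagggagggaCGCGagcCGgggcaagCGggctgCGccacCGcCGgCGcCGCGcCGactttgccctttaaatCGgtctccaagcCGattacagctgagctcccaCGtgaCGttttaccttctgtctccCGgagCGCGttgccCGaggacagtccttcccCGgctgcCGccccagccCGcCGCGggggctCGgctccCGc
OBP2B: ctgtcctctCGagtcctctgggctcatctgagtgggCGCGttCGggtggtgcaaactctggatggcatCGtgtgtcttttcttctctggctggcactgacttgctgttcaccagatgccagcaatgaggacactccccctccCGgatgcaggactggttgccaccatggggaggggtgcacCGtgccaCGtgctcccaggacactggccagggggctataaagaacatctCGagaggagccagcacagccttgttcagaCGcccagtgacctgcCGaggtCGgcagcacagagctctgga
ZNF717: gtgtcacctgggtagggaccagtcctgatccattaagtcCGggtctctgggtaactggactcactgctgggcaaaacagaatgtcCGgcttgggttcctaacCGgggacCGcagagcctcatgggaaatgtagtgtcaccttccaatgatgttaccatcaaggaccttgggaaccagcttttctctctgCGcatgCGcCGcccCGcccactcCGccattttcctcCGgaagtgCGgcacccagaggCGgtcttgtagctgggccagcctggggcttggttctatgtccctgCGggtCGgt
SGTB: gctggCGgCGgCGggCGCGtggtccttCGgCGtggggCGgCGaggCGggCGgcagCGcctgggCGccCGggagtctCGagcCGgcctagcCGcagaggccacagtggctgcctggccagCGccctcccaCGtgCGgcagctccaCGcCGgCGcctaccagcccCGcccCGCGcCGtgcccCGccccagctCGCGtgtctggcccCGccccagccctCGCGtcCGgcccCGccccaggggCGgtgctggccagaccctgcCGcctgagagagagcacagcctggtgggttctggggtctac
HYCC1: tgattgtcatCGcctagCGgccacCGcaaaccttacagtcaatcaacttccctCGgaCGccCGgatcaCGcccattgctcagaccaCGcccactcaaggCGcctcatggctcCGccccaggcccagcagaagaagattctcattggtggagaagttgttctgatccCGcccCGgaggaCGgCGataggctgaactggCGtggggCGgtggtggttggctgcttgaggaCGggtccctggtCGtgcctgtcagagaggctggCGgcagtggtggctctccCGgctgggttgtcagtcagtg
IQGAP1, a scaffold protein that binds actin filaments, has its promoter at chr15:90387992-90388291 on the plus strand, with 31 CpG and a GC content of 74.0%. The window printed for RNF166, a RING finger ubiquitin ligase, is at chr16:88703532-88703831 on the minus strand, with 13 CpG and 64.3% GC. Its peak, with a total of 93206, did not count as a gene-end peak. This annotated start thus lies more than 1 kb from either end of the gene. RASGRF2, an exchange factor for RAS, has its promoter at chr5:80960113-80960412 on the plus strand, with 41 CpG and 74.7% GC. The promoter of OBP2B, an odorant-binding protein gene, is at chr9:133209201-133209500 on the minus strand and held 12 CpG, and that of ZNF717, a zinc finger gene, is at chr3:75785500-75785799 on the minus strand and held 14. Of the promoters under IgG, SGTB is at chr5:65722060-65722359 with 37 CpG and HYCC1 at chr7:23014081-23014380 with 20 CpG, both on the minus strand. The number of CpG thus ranged from 12 to 41 under the IgG-free peaks printed, and both IgG promoters lay inside that range.

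Over all 22010 promoter windows, 596 shared bases with an IgG-free peak and 105 with an IgG peak. The median GC content was 68.0% under IgG-free peaks, 64.3% under IgG peaks and 62.3% over all promoters, and the median number of CpG was 27, 24 and 21 in the same order of sets. The promoters under IgG-free peaks were therefore the richest in CpG of these sets, by a margin that is small beside the spread of single promoters, whose quartiles were 14 and 35.3 CpG under IgG-free peaks against 7 and 31 over all. Among promoters with up to 5 CpG 0.997% held an IgG-free peak and 0.361% an IgG peak. Among those with 36 or more the shares were 4.14% for IgG-free and 0.639% for IgG peaks. In between, the IgG-free share did not rise steadily. It was 3.04% for 6 to 15 CpG, 2.25% for 16 to 25 and 3.46% for 26 to 35. Short motifs were searched by their letters on both strands. The motif GGGCGG stood in 67.1% of the promoters under IgG-free peaks, 61.0% of those under IgG peaks and 56.3% of all promoters, and the motif TATAAA in 6.04%, 12.4% and 9.49% of the same sets. The motif CACGTG stood in 11.9% of promoters under IgG-free peaks, 7.62% of those under IgG peaks and 8.32% of all. The motif CCAAT stood in 29.4%, 29.5% and 34.7% of these sets and the motif TGACTCA in 4.53%, 6.67% and 4.02%. These are matches of letters and not binding sites, and some of these motifs hold a CpG, which also differed in number between the sets.

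Width set the IgG-free peaks apart most plainly. Their median width was 280 bp, with quartiles of 210 and 350 bp, against a median of 50 bp and quartiles of 30 and 100 bp for IgG peaks. The Flag-actin peaks that lay over IgG peaks had the widths of the IgG list, with a median of 50 bp and quartiles of 30 and 80 bp. Peaks of up to 100 bp made up 4.29% of the IgG-free peaks (1123 peaks), 79.8% of the IgG peaks (16091 peaks) and 81.5% of the Flag-actin peaks over IgG. Read the other way, 9.70% of the Flag-actin peaks of up to 50 bp were IgG-free, as were 10.1% of those over 50 and up to 100 bp, 75.4% of those up to 200 bp, 96.8% of those up to 400 bp and 95.7% of wider ones. Wide peaks had more bases in which to meet an IgG peak and still met fewer. The IgG-free peaks covered 7.46 Mb, which is 88.5% of all bases under Flag-actin peaks, against 1.45 Mb under IgG peaks.

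**Figure D1:**
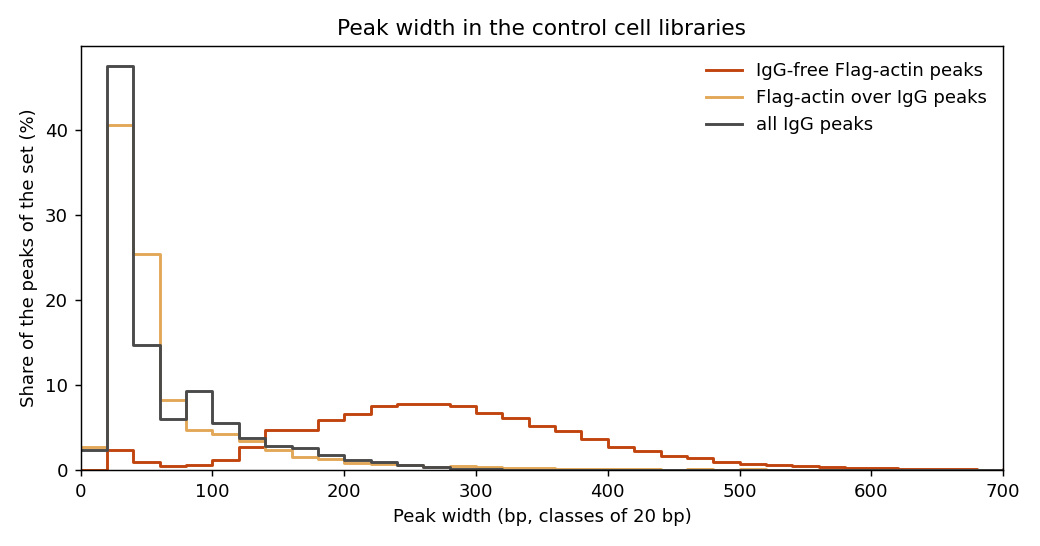
Share of the peaks of each set (vertical axis, percent) by peak width (horizontal axis, bp, in classes of 20 bp) for IgG-free Flag-actin peaks, Flag-actin peaks over IgG and all IgG peaks of the control cells, 1 library a side. The IgG-free curve is centred near its median of 280 bp, while the curves of the other sets lie mostly below 100 bp and over each other.

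The IgG-free peaks were wide and low. The maximum signal of a peak came in whole multiples of a fixed step of its library, 21.5 in the Flag-actin and 6.61 in the IgG library, for 100% of the values checked within a tolerance of 0.05 steps. On that scale the median maximum was 10 steps in IgG-free peaks, with quartiles of 8 and 12 steps. It was 114 steps in Flag-actin peaks over IgG, 50 steps in all IgG peaks and 12 steps in the IgG peaks that met no Flag-actin peak. IgG-free peaks made up 67.5% of the Flag-actin peaks but held 21.96% of the summed total signal of the list, and the remainder lay in the peaks shared with IgG. Whether a step equals 1 fragment is not given, so steps are a scale within each library. Steps of the Flag-actin and IgG libraries stand side by side here and do not measure a difference in signal between them.

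Few peaks lay close to the border between the classes as drawn by the called regions. IgG signal below the calling threshold was not measured under IgG-free peaks. Among IgG-free peaks 90 lay within 100 bp of an IgG peak, 800 (3.06%) within 1 kb and 5704 (21.8%) within 10 kb. Just inside the overlap rule, 6 of the Flag-actin peaks counted as over IgG shared 10 bp or less with an IgG peak.

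Ranked by total signal, the head of the IgG-free list was unlike its body. The totals had a median of 30496 and a 90th percentile of 43811, and the lowest total in the set was 25771, while the highest was 4727290. Of the first 50 peaks, 33 were up to 100 bp wide, 9 lay in actin pseudogenes or in POTE genes and 4 lay at a gene end. The median width was 65 bp in the first 50 and 560 bp in ranks 51 to 500, and after that it narrowed with rank to 240 bp in the last band. Peaks of ranks 51 to 500 had a median of 14.5 protein-coding genes in the surrounding 1 Mb, against 10 in ranks 20001 to 26159, and 13.3% of them lay at gene ends, against 10.9%. Total signal is summed over the bases of a peak.

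**Figure D2:**
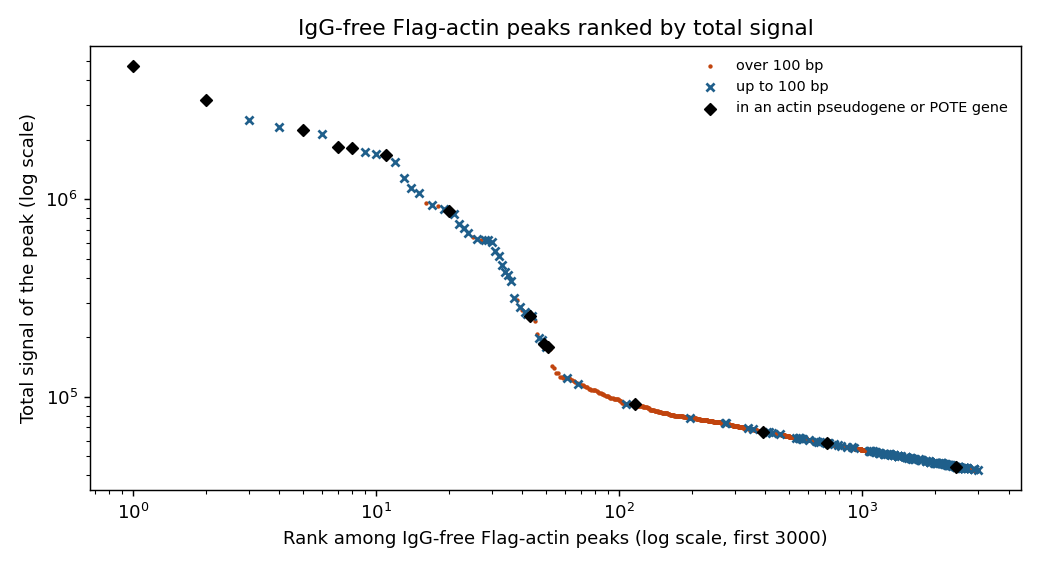
Total signal of the first 3000 IgG-free Flag-actin peaks (vertical axis, log scale, units of the deposited list) by rank (horizontal axis, log scale), with peaks up to 100 bp, wider peaks and peaks in actin pseudogenes or POTE genes marked apart. Narrow and actin-related peaks fill most of the first 50 ranks, and the curve flattens below a total of 179110.

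Annotated actin pseudogenes and POTE genes held the highest total signals among IgG-free peaks, but not the highest maxima. Of the first 10 peaks by total signal, 5 lay in actin pseudogenes or POTE genes. The maximum was 40117 at rank 1 and 83885 in the 60 bp peak of rank 3, which lay in no such locus. The first and second ranks fell in ACTBP2, a processed pseudogene of ACTB on chromosome 5, with total signals of 4727290 and 3169850. POTEE, a member of the POTE ankyrin family whose protein ends in an actin-like domain, held rank 5 with 2235430 at chr2:131263671-131264040. Its paralogs POTEF and POTEI held ranks 8 and 20, with 1813000 and 873427. ACTG1P14, a pseudogene of the cytoplasmic gamma-actin gene that lies inside the histone demethylase gene KDM4C on chromosome 9, was at the peak of rank 7 with 1846720, and ACTBP11 on chromosome 1 was at rank 11 with 1683720. In all, 12 of 33 annotated actin pseudogenes held an IgG-free peak and 1 held an IgG peak, beside 4.17% and 2.24% of 16458 pseudogenes of every kind. Of 14 POTE loci 3 held an IgG-free peak and 5 an IgG peak, beside 36.0% and 28.8% of all protein-coding genes. The 16 IgG-free peaks in pseudogenes spanned nearly the whole ranking, down to rank 21407 in ACTG1P18. These loci share sequence with ACTB and with any construct made from it, and the peak lists do not show how reads of such copies were placed, so the source of their signal cannot be told apart.

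ACTB, the gene of cytoplasmic beta-actin, held no IgG-free peak. The labels do not name the actin isoform that was tagged. ACTB held 5 Flag-actin peaks on chromosome 7, between 160 and 550 bp wide, and each lay over an IgG peak. Their maximum signals lay between 3719 and 6232 steps in the Flag-actin library, and the IgG peaks beneath them reached between 7 and 22 steps. The overlap rule therefore removed the strongest Flag-actin signal at the gene because of IgG peaks at the same place. The maxima of those IgG peaks lay below the 50 steps of the median IgG peak. Steps of the libraries are on unlike scales. Of the other actin isoforms, ACTG1, cytoplasmic gamma-actin, had an IgG-free gene-end peak of total signal 49610 (rank 1471), and ACTA1, skeletal muscle actin, had one of 44241 (rank 2429). These were 2 of 7 isoform genes, beside 14.8% of all protein-coding genes, and 1 of the 7 had an IgG gene-end peak. Without chromosomes 8, 16 and 17 they were 1 of 6.

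IgG-free peaks lay in gene-dense parts of the genome. The median number of protein-coding genes centred within 500 kb on either side was 11 for IgG-free peaks (quartiles 6 and 20), 6 for IgG peaks (quartiles 2 and 11) and 4 for 302991 positions set every 10 kb along the genome. Regions of at least 20 genes held 26.9% of IgG-free peaks, 11.4% of IgG peaks and 6.93% of the grid. Regions with no gene held 2.06% of IgG-free peaks, 7.89% of IgG peaks and 16.2% of the grid. The IgG peaks thus also lay above the genome grid, and the IgG-free peaks lay farther above it. IgG peaks that met no Flag-actin peak had a median of 6 genes, as did those that met one.

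They also lay closer to genes. Of IgG-free peaks 64.5% (interval 64.0 to 65.1%) touched a protein-coding gene, against 49.2% (48.5 to 49.8%) of IgG peaks and 41.6% of grid positions. Outside genes the median distance to the nearest gene was 30382 bp for IgG-free peaks, 66472 bp for IgG peaks and 122441 bp for the grid. More than 50 kb from any gene lay 14.0% of IgG-free peaks (3660 peaks) and 28.1% of IgG peaks (5670 peaks). Within 1 kb of an annotated gene end lay 11.98% of IgG-free peaks (3134 peaks, interval 11.6 to 12.4%), 3.88% of IgG peaks (782 peaks, interval 3.62 to 4.15%) and 2.36% of the grid.

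**Figure D3:**
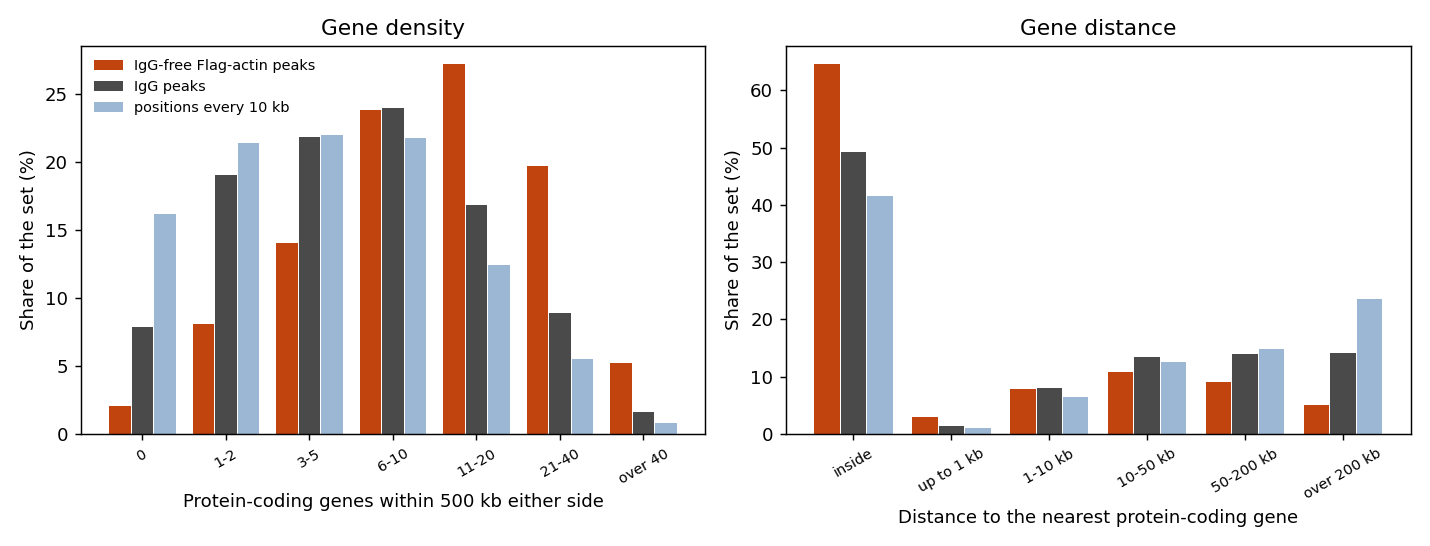
Share of each set (vertical axes, percent) by the number of protein-coding genes within 500 kb on either side (left) and by distance to the nearest protein-coding gene (right), for IgG-free Flag-actin peaks, IgG peaks and positions every 10 kb. IgG-free peaks exceed IgG peaks in the classes above 10 genes and inside genes, and fall below them in the classes of few genes and beyond 10 kb.

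Peak width moved with these differences. Among peaks of up to 50 bp the gene-end share was 3.62% (27 peaks, interval 2.50 to 5.21%) in IgG-free and 3.24% (388 peaks, interval 2.94 to 3.57%) in IgG peaks, intervals that overlap, and the median number of genes was 6 for IgG-free and 5 for IgG peaks. Among peaks over 100 and up to 200 bp the share was 9.23% in IgG-free peaks (interval 8.46 to 10.1%) and 5.31% in IgG peaks (4.59 to 6.12%). Over 200 and up to 400 bp, which held 63.5% of the IgG-free peaks, it was 12.4% in IgG-free peaks (11.95 to 12.96%) and 5.45% in IgG peaks (4.02 to 7.37%), with medians of 11 and 7 genes. Over 50 and up to 100 bp the shares were 6.90% for IgG-free (4.75 to 9.91%) and 4.33% for IgG peaks (3.75 to 5.00%). The IgG-free share was thus the higher in each of these classes. The intervals of the sets were apart over 100 bp and overlapped up to 100 bp. Overlap does not show likeness, the intervals cover counting error only, and no test was made. Widths were not matched within a class. Over 200 and up to 400 bp, 249 of 715 IgG peaks were up to 220 bp wide, against 1735 of 16621 IgG-free peaks. Wider peaks also reach a gene-end window more easily, and the IgG list held only 38 peaks over 400 bp.

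Of 19974 protein-coding genes, 2960 (14.8%) had an IgG-free peak within 1 kb of an end and 823 (4.12%) had an IgG peak there. The number with an IgG-free peak was 1238 with the Flag-actin list at the length of the IgG list, 1260 with the upper 50% of each list by total signal and 5058 with windows of 3 kb. Both kinds stood at 150 genes (0.751%), an IgG-free peak with no IgG peak at 2810 (14.1%), and an IgG peak with no Flag-actin peak at 250 (1.25%). Most genes held a single IgG-free gene-end peak (2470 genes), 490 held more and the highest number was 5. Within the gene itself, 7194 genes (36.0%) had an IgG-free peak and 5745 (28.8%) an IgG peak. The genes with an IgG-free gene-end peak had a median length of 18402 bp, against 24171 bp over all genes.

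For the 15812 genes with a strand in the RefSeq promoter table, the start and the terminus could be told apart. An IgG-free peak stood within 1 kb of the start of 1424 genes (9.01%) and of the terminus of 1031 (6.52%), and an IgG peak within 1 kb of the start of 363 (2.3%) and of the terminus of 325 (2.06%). Around 22012 annotated starts the IgG-free peaks were most frequent just downstream, where 3.71% of starts had a peak in the window from 250 to 499 bp and 3.47% in the window from 0 to 249 bp. Upstream the share was 2.26% in the last 250 bp before the start and 0.795% at 3 kb. IgG peaks stood at between 0.241% and 0.486% of starts in every window. IgG peaks also rose toward the start, from 0.250% at 3 kb upstream to 0.486% in the window from 0 to 249 bp. The rise was larger in IgG-free peaks, which stood above IgG peaks in every window, also at 3 kb upstream. Wider peaks also fill these windows more easily.

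**Figure D4:**
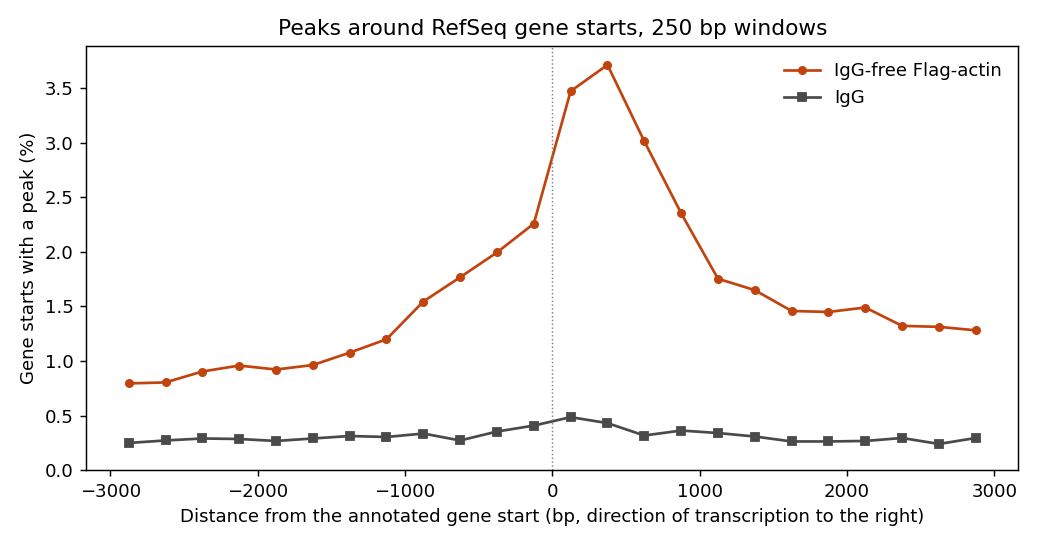
Share of RefSeq gene starts with a peak (vertical axis, percent) in windows of 250 bp by distance from the start (horizontal axis, bp, transcription to the right), for IgG-free Flag-actin peaks and IgG peaks. The IgG-free line is highest just downstream of the start, at 3.71%. The IgG line is also highest just downstream, at 0.486%.

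By the naming rule, the gene-end peaks of highest total signal began with narrow ones. PPP2R2B, a regulatory subunit of protein phosphatase 2A, had a 60 bp peak at its terminus, chr5:146580961-146581020, with a total signal of 2327780 (rank 4). TBX4, a T-box factor of hindlimb and lung development, had a 200 bp peak 892 bp from its start with 923681 (rank 18). IQGAP1, whose promoter is printed above, had a 90 bp peak with 672412 (rank 24). CSH2, a placental lactogen gene, had a 170 bp peak at chr17:63872041-63872210 with 309683 (rank 38). The maximum signals of these peaks lay between 426 and 3602 steps, far from the 10 steps of the median IgG-free peak.

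From there on the named gene-end peaks were mostly broad and low. TMEM276 on chromosome 8 had a peak of 1020 bp with 120910 and a maximum of 14 steps. KRTAP10-4, a hair keratin-associated protein gene on chromosome 21, lay under a peak of 1230 bp with 114467. KIF19, a kinesin of cilia, had 111460, CYP11B2, aldosterone synthase, had 108668, and CARD14, a scaffold of NF-kB signalling in skin, had 107809. A single peak of 880 bp on chromosome 19, with 102870, counted for 3 genes whose termini meet there, CERS1, a ceramide synthase, GDF1, a growth factor gene, and UPF1, the helicase of nonsense-mediated decay. The same holds for DCUN1D2 and SLC9D1, whose starts share a 120 bp peak with 87622. The remaining members of the first 20 were LOC124904970, SAMD14, CTDP1, a phosphatase of the RNA polymerase II tail, TONSL, a replication repair factor, PSCA, a surface antigen, and GP1BB, a platelet receptor subunit, with totals between 82683 and 124775. Of these 20 genes, LOC124904970 had an IgG peak at an end, which is near the 4.12% of all genes.

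Inside genes, 10 peaks were named. Besides POTEE, KDM4C, POTEF and POTEI they were ASCC1 with 2153610, ACSL3, a fatty acid activating enzyme, with 1687150, PCDH17, a protocadherin, with 1546050, ZNF727 with 1145530, HDAC8, a histone deacetylase on chromosome X, with 959760, and CABLES2 with 712358. The peaks that lie in no annotated actin pseudogene or POTE gene were between 60 and 180 bp wide. Their likeness to actin in sequence was not tested. HDAC8 stood on a chromosome that held 131 IgG-free peaks in all. The strongest sites more than 50 kb from a protein-coding gene were nearest to SLITRK5 at 155535 bp, with 2521710, ANKRD7 at 864959 bp, with 621084, LRRIQ3, PRR16 and CCDC74A, and 3 of these 5 peaks were 60 bp wide. The site named by CCDC74A lay 592 bp from POTEKP, a POTE pseudogene.

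Without peaks of up to 100 bp, an ordering chosen after the values were seen, 18 of the 20 gene-end names stayed and CYC1, cytochrome c1, and LOC124905153 replaced PPP2R2B and IQGAP1. Inside genes, 5 of 10 names stayed, and RBPJ, the DNA-binding factor of Notch signalling, GBX2, a homeobox factor, LHPP, TRPM2, a calcium channel, and RPTOR, a subunit of mTORC1, came in. The peak in TRPM2 was 1310 bp wide with a total of 132292 and that in RPTOR 1090 bp wide with 131862, both at a maximum of 12 to 13 steps.

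Some genes were studded with IgG-free peaks along their length. Peaks were counted here within the gene and within 1 kb of its ends. Among genes of at least 10 kb with at least 5 peaks, the densest was TEPSIN, an AP-4 accessory gene of 10.8 kb on chromosome 17, with 10 IgG-free peaks and 1 IgG peak. PCYT2, an enzyme of phosphatidylethanolamine synthesis, held 9 against 0 IgG peaks, and FASN, fatty acid synthase, held 14 against 0. PLEC, which encodes the cytoskeletal linker plectin, held 33 against 1, HSF1, the heat shock factor, 13 against 0, and PIEZO1, a mechanically gated channel, 37 against 0. BAHCC1 held 39 against 3, AATK 26 against 1, BOP1 16 against 1 and WDR97 7 against 0. All 10 lie near the long-arm ends of chromosomes 8, 16 and 17. They were ranked by IgG-free peaks per kb, so the contrast with IgG is partly set by the choice. IgG peaks numbered 7.76, 8.71 and 9.44 per Mb on these chromosomes, so few could be met in genes of such length. The highest numbers, looked up after the values were seen, were 107 IgG-free and 12 IgG peaks in GSE1, 99 and 13 in RBFOX3, 76 and 6 in ZNF469 and 54 and 7 in RPTOR.

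These places belonged to a pattern along the chromosomes. IgG-free peaks numbered 34.3 per Mb on chromosome 17, 23.8 on chromosome 19, 21.1 on chromosome 16, 18.5 on chromosome 22 and 16.9 on chromosome 21, and 0.840 per Mb on X. IgG peaks numbered 9.44, 10.9, 8.71, 7.26 and 6.28 per Mb on those autosomes and 4.10 on X. Per protein-coding gene, chromosome 19 held 0.961 IgG-free peaks, chromosome 17 2.45 and chromosome 21 3.29, so the order by chromosome was not that of gene number. Across the 23 chromosomes, which share a library and differ in base composition, IgG-free peaks per Mb had a Pearson r of 0.71 and a Spearman rho of 0.68 with genes per Mb, and IgG peaks 0.80 and 0.59.

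**Figure D5:**
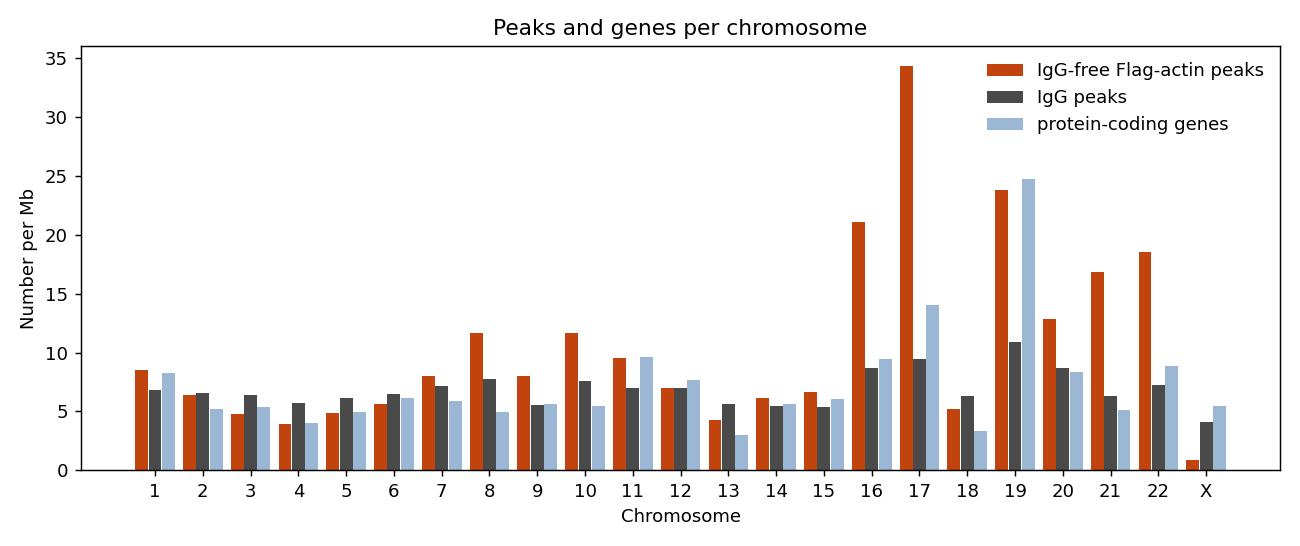
Number per Mb (vertical axis) of IgG-free Flag-actin peaks, IgG peaks and protein-coding genes on each chromosome (horizontal axis). Chromosome 17 stands highest with 34.3 IgG-free peaks per Mb and X lowest with 0.840, while IgG peaks lie between 4.10 and 10.9 per Mb.

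The 4 fullest bins of 5 Mb held 10.6% of all IgG-free peaks (2763 peaks), 1.73% of IgG peaks and 1.69% of genes. They were 85 to 90 Mb of chromosome 16 with 792 IgG-free and 108 IgG peaks, 140 to 145 Mb of chromosome 8 with 706 and 99, 80 to 83.2 Mb of chromosome 17 with 681 and 66, and 75 to 80 Mb of chromosome 17 with 584 and 75. The median bin held 19 IgG-free and 33 IgG peaks. Within 5 Mb of a chromosome end lay 29.8% of IgG-free peaks, 10.4% of IgG peaks and 13.4% of genes. Neighbouring IgG-free peaks were a median of 20750 bp apart and IgG peaks 88210 bp. DNA copy number of these regions was not tested.

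Genes of the actin system were described by lists of symbols, as the number with an IgG-free gene-end peak, to be read beside 14.8% of all genes. Shares with an IgG gene-end peak, here and in the lists and families below, are to be read beside 4.12% of all genes and often rest on few genes. Of genes for severing, capping and monomer binding 7 of 33 (21.2%) had such a peak, led by CORO1B, a coronin, with a total signal of 63139, then TWF2, a twinfilin, with 35650, CORO1A and XPO6, the nuclear exporter of actin, with 29637. Of crosslinkers and myosins 8 of 38 (21.1%) had one, led by EZR, ezrin, with 46603 and 3 gene-end peaks, ACTN4, an alpha-actinin, with 38657, and FSCN2. Of nucleation and polymerisation genes 7 of 37 (18.9%) had one, among them FMNL1 and FMN2, formins, EVL and PFN1, profilin, at 30496. IgG peaks stood at 3.03%, 7.89% and 0% of these lists. Each IgG-free share lay above that of all genes, by a few genes. With chromosomes 8, 16 and 17 left out, the counts were 5 of 30, 7 of 35 and 5 of 33 in the same order. Severing, capping and monomer binding then stood at 16.7% and nucleation and polymerisation at 15.2%, beside 13.0% of all genes. Each list thus stayed above all genes. The margin became smaller for severing, capping and monomer binding and for nucleation and polymerisation. It did not become smaller for crosslinkers and myosins, at 7 of 35.

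Among the nuclear complexes that hold actin, SWI/SNF had 5 of 28 subunit genes (17.9%) with an IgG-free gene-end peak, led by PHF10 with 48536 and SMARCD2 with 35435, then DPF1 and BCL7C. INO80, SRCAP and TIP60 had 4 of 31 (12.9%), which were DMAP1 with 45529, YY1, TRRAP and INO80C, whose total of 25771 lies at the bottom of the list. RNA polymerase subunits had 4 of 29 (13.8%), POLR2F with 50254, POLR2I, POLR2E and POLR2A with 27489. This was a list in which IgG peaks were more frequent, at 5 of 29 genes (17.2%). Targets of SRF and MRTF had 3 of 29 (10.3%), ITGA5, TAGLN and CNN1, and integrins and focal adhesion genes 7 of 42 (16.7%), led by ITGB4 with 69153. Without chromosomes 8, 16 and 17, 13.0% of all genes had such a peak. The counts were then 3 of 24 (12.5%) for SWI/SNF and 4 of 32 (12.5%) for integrins and focal adhesion, so both fell below that share. INO80, SRCAP and TIP60 went the other way, from below the share of all genes to above it, at 4 of 28 (14.3%). RNA polymerase subunits stood level with all genes, at 3 of 23 (13.0%), and targets of SRF and MRTF below, at 3 of 26 (11.5%). No immediate early gene of 25 had an IgG-free gene-end peak, and 2 of them (8.00%) had an IgG peak, beside 4.12% of all genes.

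Genes of the cell type and of other cell types were set side by side. Of intestinal epithelium genes 1 of 28 (3.57%) had an IgG-free gene-end peak, CDH1, E-cadherin, with 45959. An IgG peak stood at 3 of the 28 (10.7%), beside 4.12% of all genes. Of neuron and liver markers 10 of 30 (33.3%) had one and none had an IgG peak. The highest were TUBB3, a neuronal tubulin, with 60133, RBFOX3, the neuronal antigen NeuN, with 51542, SLC32A1, the GABA transporter of vesicles, with 35650, and APOA1, an apolipoprotein of liver, with 34362. Within the whole gene the order turned round, with an IgG-free peak in 13 of 30 neuron and liver markers and in 14 of 28 intestinal genes. Both shares lay above the 36.0% of all protein-coding genes. Without chromosomes 8, 16 and 17 the gene-end counts were 8 of 23 for neuron and liver markers and 0 of 23 for intestinal genes. Peak lists give no expression, so the cell type could not be checked by its markers.

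Families named by symbol spread more widely. Collagens had 18 of 44 genes (40.9%) with an IgG-free gene-end peak and 4.55% with an IgG peak, led by COL6A2 with 62280, COL8A2 with 61851, COL6A1 with 51328 and COL1A1 with 46388. FOX genes had 15 of 52 (28.8%), led by FOXC2 with 79891, FOXL2 and FOXL2NB, which share 1 peak, and FOXJ1 with 4 gene-end peaks, and none had an IgG peak. Potassium channels had 27 of 96 (28.1%), led by KCNH6 with 48751, ADAMTS genes 6 of 24, HOX genes 9 of 40 (22.5%) and SOX genes 4 of 19 (21.1%). Without chromosomes 8, 16 and 17 the shares were 39.0% for collagens, 22.7% for FOX genes, 26.8% for potassium channels and 13.3% for HOX genes.

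At the other end, olfactory receptors had 11 of 392 (2.81%) and an IgG share of 3.32%, protocadherins 3 of 65 (4.62%) and an IgG share of 6.15%, ZNF zinc finger genes 45 of 517 (8.70%), histone genes 8 of 79 (10.1%) and defensins 0 of 45. Families of housekeeping function lay near the level of all genes, with cytosolic ribosomal proteins at 15 of 82 (18.3%), led by RPL13 with 73448, and mitochondrial ribosomal proteins at 11 of 77 (14.3%). Solute carriers had 68 of 386 (17.6%) and TMEM genes 44 of 233 (18.9%). Of the 12 lists 7, and of the 22 families 13, lay above 14.8%. Members that sit side by side, such as the HOXB and KRTAP10 genes, can share a peak, and long genes and short genes have end windows of the same size.

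On the IgG side, 293 IgG peaks at gene ends met no Flag-actin peak, and 150 of them (51.2%) were over 100 bp wide. Those of highest signal were narrower. They were an 80 bp peak shared by F12, coagulation factor XII, and PFN3, a testis profilin, with 326 steps, a 60 bp peak at ZZZ3 with 312 steps, a 30 bp peak at MYH10, nonmuscle myosin heavy chain IIB, with 197 steps, and a 100 bp peak at KCTD18 with 182 steps. MYH10 held 1 IgG-free Flag-actin peak within its body.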

How the data were processed

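CUT&RUN peak lists of 1 Flag-actin and 1 IgG library of control HCT-116 cells were used. The submitters' processing notes give hg38 as the build. They name SEACR, MACS2, bedtools 2.30.0, BWA, SAMtools, deepTools, FastQC 0.12.0 and Trim Galore 0.4.5, without roles, order or settings. The deposited lists give the total and the maximum signal of each peak, called by the authors per library. Their names carry the word stringent and thresholds of 0.01 for Flag-actin and 0.005 for IgG, so list lengths are not measures of binding. For its normalisation, no method is given in the sources used. Read depth is unknown.

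Of 40019 Flag-actin and 21158 IgG regions, 1241 and 998 off chromosomes 1 to 22 and X were left out. Overlap needed 1 bp. Gene ends were windows of 1 kb around either end of 19974 RefSeq protein-coding genes (GRCh38.p14), and strand came from the promoter table for 15812 of them. Gene density counted gene midpoints within 500 kb of a peak centre. Intervals of shares are Wilson 95%. Under the other settings, values were compared with intervals of the main values. For the difference in gene-end share these combined the Wilson limits of both shares. For differences in medians they were taken from order-based limits of both medians. Computation used Python 3.11.15, numpy 2.4.6, pandas 2.3.3 and matplotlib 3.10.9, and bedtools 2.31.1 gave the same overlaps, distances and densities on 23199 simulated intervals, with 0 disagreements.

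Genes were named by a rule on total signal. It took the 20 genes with the highest IgG-free gene-end peak, 10 with the highest peak inside, 5 sites over 50 kb from genes, the 10 densest genes, 5 genes with an IgG but no Flag-actin gene-end peak, ACTB, and up to 4 members of each list or family, of which 1 is not reported here. The peaks, lists and families were chosen with earlier results of these data known, so no list gives independent support. All 357 list entries matched. Alternatives changed the overlap rule, list length, peak width, chromosomes, gene set, windows and comparator.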

Additional observations from a re-analysis of the deposited data

How the results depend on the processing

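Of 59 values under 13 other settings, 29 stayed within their counting interval or within 1.5 times and 30 moved. Among the 41 that are differences between the sets, 39 kept their sign, 2 fell to no difference and none turned round. The share of Flag-actin peaks that are IgG-free was 73.5% when IgG peaks had to cover 50% of a peak, 66.3% with IgG peaks widened by 500 bp, 54.1% with the upper 50% of each list by total signal, 44.3% with the Flag-actin list at the length of the IgG list, 91.5% in peaks over 100 bp, 66.5% without the last 1 Mb of chromosomes, 68.1% without X and 64.1% without chromosomes 8, 16 and 17. IgG-free peaks were wider than IgG peaks by a median of 220 bp with the coverage rule, 260 bp in the upper part, 280 bp at equal length, 130 bp in peaks over 100 bp and 180 bp against IgG peaks that met no Flag-actin peak, beside 230 bp. Genes with an IgG-free gene-end peak numbered 1260 in the upper part, 1238 at equal length and 5058 with windows of 3 kb. The difference in gene number was 6 in the upper part, 7 at equal length, 4 in peaks over 100 bp, 10 with genes of every kind, 1 in windows of 100 kb and 4 without chromosomes 8, 16 and 17, beside 5. The median distance to a gene, counted as 0 inside genes, differed by -1200 bp in the upper part, 0 in peaks over 100 bp, 0 with genes of every kind and -10 bp against IgG peaks that met no Flag-actin peak, beside -502 bp. The gene-end share differed by 9.74 percentage points at equal length, 7.00 in peaks over 100 bp, 5.44 with windows of 500 bp and 13.2 with windows of 3 kb, beside 8.10. The settings without chromosomes 8, 16 and 17 and against IgG peaks that met no Flag-actin peak were chosen after seeing the data. The cause of these movements was not tested, except that fewer peaks or wider windows give fewer or more genes by construction. No paired analysis was possible because each side has 1 library and no test was made. List length is set by the threshold of the caller and depth is unknown, so a missing peak does not show a lack of signal.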

Other observations

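IgG-free peaks also lay over genes that make no protein. Pseudogenes held 2.07% of IgG-free peaks (542 peaks), 1.11% of IgG peaks and 0.819% of positions set every 10 kb, and transcribed pseudogenes held 1.38%, 0.957% and 0.852%. Long noncoding RNA genes held 12.7% of IgG-free peaks, against 15.0% of IgG peaks and as large a share of the positions. MicroRNA genes were touched by 36 IgG-free and 5 IgG peaks, snoRNA genes by 7 and 1, tRNA genes by 2 and 0, and snRNA genes by 0 and 1. Wider peaks touch short genes more easily, and the positions are single bases.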
